A study of Mus musculus with 6 samples.

Results

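Structural microtubule-associated proteins (MAPs) were examined in dorsal root ganglia of dt27J mice, which carry a mutant allele of Dst, and of WT mice. The members were 8 genes, Map1b, Map1a, Map1s, Mapt, Map2, Map4, Map6 and Map7, among 17178 gene symbols named on the array through a RefSeq table. They were chosen with earlier results of these data known, so shares set against all tested probes are descriptions. Every non-control probe whose transcript accession belongs to one of these symbols was used, which gave 19 of 41174 probes. All 19 passed the filter on dim probes, which kept a probe only where the 3 arrays of one genotype or of the other all read it as well above background.

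The series holds ganglia of 3 dt27J mice and of 3 WT mice, all of the C57BL/6 background and all taken at postnatal day 4, a stage the submitters call pre-phenotype. Each sample had 1 single-colour array, and the design text names 2 litters without saying which animal came from which. The labels carry 2 dates: dt27J 1, dt27J 2, WT 1 and WT 2 have the first, and dt27J 3 and WT 3 the second. The tissue is whole ganglion, so that fewer neurons and less RNA per neuron cannot be told apart in any value below.

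Structural MAPs bind along the microtubule lattice and set how stable, how closely bundled and how accessible to motors an axonal microtubule is. MAP1A, MAP1B and MAP1S are each made as a precursor that is cut into a heavy and a light chain, and MAP1B is a binding partner of dystonin, the cytoskeletal linker encoded by Dst. Tau (Mapt), MAP2 and MAP4 share a family of microtubule-binding repeats, MAP6 makes microtubules resistant to cold, and MAP7 recruits kinesin-1 motors.

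Signals are given on a log2 scale on which 0 is the 75th percentile of the same array, and differences are dt27J minus WT on this scale. A level of one probe cannot be set against that of another, so each probe is compared only with itself across arrays. A difference was called where the p from limma, adjusted by the Benjamini-Hochberg method over 26248 tested probes, lay under 0.05. Dst probe A_51_P300434 averaged -1.45 ± 0.44 in dt27J ganglia and 1.23 ± 0.18 in WT ganglia (SD, n = 3 each), and fell by 2.68 (SE 0.26, adjusted p = 0.0341, limma). The other 2 Dst probes fell by 2.42 and 2.46, and 1 dt27J array read each of these as not well above background. Over the whole array 344 probes were higher and 494 lower in dt27J, a split that was 539 and 439 after quantile normalization, 261 and 97 after normexp and 614 and 561 with the authors' values. Between 63.9% and 70.8% of spots on dt27J arrays and between 64.9% and 72.2% on WT arrays were well above background.

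Most of the MAP transcripts had lower signals in dt27J ganglia, but few differences passed the test. Of the 19 probes, 16 (84.2%) had a negative difference, against 53.6% of all tested probes. The median difference was -0.69 over the member probes and -0.05 over all tested probes. Within the second date alone, with 1 array per genotype, these medians were -0.21 and -0.13. The tau gene Mapt and Map1a each had 1 probe that fell, so that 2 of 19 member probes were called, both lower, where 3.19% of all tested probes were called in either direction, 1.88% lower and 1.31% higher. The Map1a probe passed the filter through its WT arrays alone, so the count of 2 rests in part on the filter: with only probes well above background on all 6 arrays, 1 of 18 member probes was called, the Mapt one, against 3.33% of the probes then tested. At an unadjusted p under 0.05 there were 9 lower and 1 higher member probes, 52.6% against 27.7% of all tested probes (15.7% lower, 12% higher). Probes of a gene share their transcripts, so the 19 values are not 19 independent ones.

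**Figure D1:**
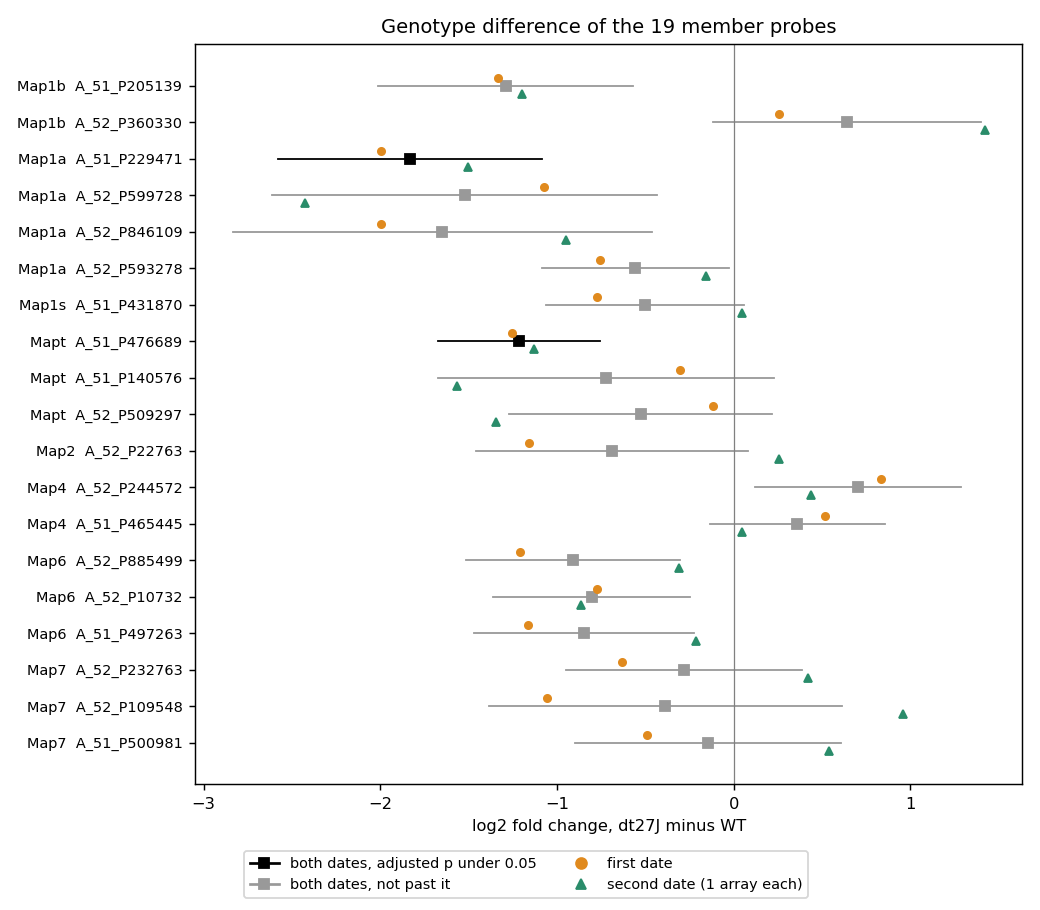
Difference between dt27J and WT ganglia on the log2 scale for each of the 19 member probes. Squares are the difference over both dates with its 95% interval (black where the adjusted p lay under 0.05, grey otherwise), circles the difference within the first date and triangles that within the second date, which has 1 array per genotype. Map4 and 1 Map1b probe lie right of 0, the other 16 probes lie left of it, and the 2 black squares are the Map1a probe at -1.83 and the Mapt probe at -1.21.

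Map1b, the gene of the dystonin partner, gave opposite signs on its 2 probes. Promoter windows are shown for Map1b and Map1a, MAP1 paralogues whose probes moved unequally, and for Map4, the member with a positive difference on every probe. Each window runs from 250 bases before to 50 after the annotated start, 5′ to 3′ on the gene's strand, from RefSeq on build GRCm38.p6. Capitals mark the GC box, spelled GGGCGG, the motif spelled CCAAT, called the CCAAT box, and the TATA box, spelled TATAAA, each on either strand.
Map1b promoter, chr13:99516553-99516852, minus strand: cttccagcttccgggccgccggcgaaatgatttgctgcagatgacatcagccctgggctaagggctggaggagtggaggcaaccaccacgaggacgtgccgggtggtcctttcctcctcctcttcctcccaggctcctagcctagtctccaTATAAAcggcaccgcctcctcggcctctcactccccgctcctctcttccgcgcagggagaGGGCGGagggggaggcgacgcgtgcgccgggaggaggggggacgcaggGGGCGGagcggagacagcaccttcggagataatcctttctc
Map1a, chr2:121289352-121289651, plus strand: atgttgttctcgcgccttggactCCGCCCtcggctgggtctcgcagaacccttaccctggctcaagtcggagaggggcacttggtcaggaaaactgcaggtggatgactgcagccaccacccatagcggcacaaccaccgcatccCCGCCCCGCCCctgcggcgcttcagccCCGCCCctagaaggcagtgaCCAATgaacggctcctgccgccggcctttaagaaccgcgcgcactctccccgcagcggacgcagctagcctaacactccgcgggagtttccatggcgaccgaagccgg
Map4, chr9:109931524-109931823, plus strand: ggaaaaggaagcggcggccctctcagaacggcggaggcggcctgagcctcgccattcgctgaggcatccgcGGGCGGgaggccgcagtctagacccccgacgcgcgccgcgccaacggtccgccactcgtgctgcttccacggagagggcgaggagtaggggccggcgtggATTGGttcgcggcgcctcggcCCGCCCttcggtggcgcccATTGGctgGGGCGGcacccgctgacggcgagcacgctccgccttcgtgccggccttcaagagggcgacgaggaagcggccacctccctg
By spelling alone, wherever a match lay relative to the start, the Map1b window held 2 GC boxes and 1 TATA box. The Map1a window held 4 GC boxes and 1 CCAAT box, and this Map4 window 3 GC boxes and 2 CCAAT boxes. Overlapping matches were counted separately. The GC content was 65.7% in the Map1b and in the Map1a window and 73.3% in this Map4 window, against a median of 52.7% over 32851 promoter windows. Of those windows, 35.7% hold the GC box, 37.4% the CCAAT box and 13.6% the TATA box. In all, 7 windows of 6 members were matched, a second one being for another annotated start of Map4. That second Map4 window had a GC content of 46.0%, with 0 GC boxes and 1 CCAAT box. The windows of Map1s, Map2 and Map7 had a GC content of 59.3%, 77.7% and 81.7%.

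Map1b probe A_51_P205139 stood at -0.92, -0.27 and -0.56 in the 3 dt27J ganglia, against 1.18, 0.30 and 0.64 in the 3 WT ganglia. The genotypes did not overlap, with dt27J lower, and the difference was -1.29 (SE 0.30, 40.9% of the WT signal), with an adjusted p of 0.0620 that missed the threshold. The same probe stood at -1.33 within the first date and at -1.20 within the second. Signal on this probe was thus lower by a similar amount in both dates.

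The other Map1b probe, A_52_P360330, stood at 0.64, 1.16 and 1.99 in dt27J ganglia, against 0.41, 0.88 and 0.57 in WT ganglia. The genotypes overlapped here, dt27J 3 was the highest array, and the difference was 0.64 (SE 0.32, adjusted p = 0.241). Within the first date it was 0.25 and within the second 1.42. Both probes carry the same Map1b transcript accession in the files, and both were well above background on all 6 arrays.

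The gap between the Map1b probes, taken within each array, was lower in dt27J than in WT by 1.93 on the log2 scale, with SDs of 0.61 in dt27J and 0.67 in WT. The gaps of the 2 genotypes did not overlap, and the exact two-sided permutation test over the 20 splits of the 6 arrays gave p = 0.1, the smallest it can give with 3 arrays per genotype. The gap changed by -1.59 in the first date and by -2.62 in the second. Across the 6 arrays the 2 probes correlated at r = -0.55, given as a description. No single direction for Map1b was therefore obtained from this array.

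**Figure D2:**
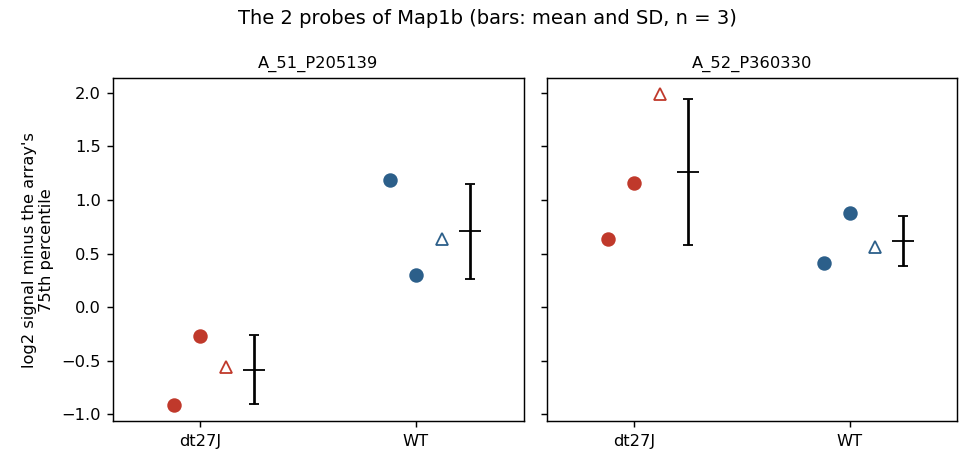
Signal of the 2 Map1b probes on each array, as log2 signal minus the array's 75th percentile; circles are arrays of the first date, triangles arrays of the second, and bars the mean and SD of 3 arrays. On the left probe all 3 dt27J arrays lie below the WT arrays, while on the right probe the genotypes overlap and dt27J 3 is highest at 1.99.

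The 5 named genes whose pattern over the 6 arrays was most like that of Map1b probe A_52_P360330 were Pkib, Lbr, Rnf2, Prorsd1 and Tstd2, with Pearson's r between 0.991 and 0.996. Each of these was highest in dt27J 3, which follows from picking them by their likeness to that probe, as does the sign of their differences. The differences between genotypes lay between 0.33 and 0.73 with none past the threshold. Lbr, for example, which encodes a receptor of the inner nuclear membrane, stood at -0.03, 0.62 and 1.75 in dt27J ganglia, against -0.15, 0.42 and -0.13 in WT ganglia.

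Map1a, the MAP1 paralogue that dominates in mature neurons, had a negative difference on all 4 of its probes. Probe A_51_P229471 stood at -5.10, -4.16 and -4.49 in dt27J ganglia, against -2.36, -2.90 and -2.99 in WT ganglia. The genotypes did not overlap on this probe, where the fitted difference was -1.83 (SE 0.31, adjusted p = 0.0472). Of the dt27J arrays 2 of 3 read it as well above background, and all 3 WT arrays did, so that no exact fold is given. The size changed with the background handling: it stood at -0.50 after normexp background correction and at -0.98 in the authors' deposited table.

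The other Map1a probes did not pass. Probe A_52_P593278 stood at 1.64, 1.68 and 1.96 in dt27J ganglia, against 2.25, 2.58 and 2.12 in WT ganglia, with no overlap and a difference of -0.56 (SE 0.22, adjusted p = 0.166). Probe A_52_P599728 stood at -2.25, -1.92 and -4.22 in dt27J ganglia, against -0.26, -1.76 and -1.79 in WT ganglia, a difference of -1.52 (SE 0.46, adjusted p = 0.0945) without overlap. Here dt27J 3 and WT 1 stood apart from the other arrays of their genotype.

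Probe A_52_P846109 stood at -2.41, -1.23 and -2.21 in dt27J ganglia, against 0.93, -0.57 and -1.26 in WT ganglia, a difference of -1.65 (SE 0.50, adjusted p = 0.0953), and WT 3 lay below dt27J 2. The Map1a probes thus shared a sign and differed in size, from -0.56 to -1.83. Of 6 pairs among them, only A_51_P229471 with A_52_P593278 had gaps that did not overlap between genotypes, with a change of -1.28 (exact permutation p = 0.1). That change was -0.10 after normexp background correction and -0.47 with the authors' values.

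Map1s, the shortest and most widely expressed MAP1 paralogue, had 1 probe, at 1.62, 1.66 and 1.45 in dt27J ganglia, against 2.39, 2.44 and 1.40 in WT ganglia. WT 3 lay below all dt27J arrays, and the difference was -0.50 (SE 0.23, adjusted p = 0.219). It was -0.78 within the first date and 0.05 within the second. The Map1s difference thus changed by 0.83 between dates, with 1 array per genotype in the second.

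Mapt, which encodes the axonal protein tau, had a negative difference on all 3 probes and passed the test on 1. Probe A_51_P476689 stood at 2.22, 2.49 and 2.55 in dt27J ganglia, against 3.54, 3.67 and 3.68 in WT ganglia. The groups were tight and well apart, and the probe fell by 1.21 (SE 0.19, 95% interval -1.67 to -0.75, adjusted p = 0.0446), a 2.32-fold decrease to 43.2% of the WT signal. It fell by like amounts in each date, -1.25 in the first and -1.13 in the second.

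The other 2 Mapt probes had smaller differences. Probe A_51_P140576 stood at 5.81, 5.59 and 4.99 in dt27J ganglia, against 6.60, 5.40 and 6.55 in WT ganglia, a difference of -0.72 (SE 0.40, adjusted p = 0.284). Probe A_52_P509297 stood at 6.62, 7.04 and 6.15 in dt27J ganglia, against 7.14, 6.75 and 7.49 in WT ganglia, a difference of -0.53 (SE 0.31, adjusted p = 0.315). On both, WT 2 lay within the range of the dt27J arrays, and the differences were -0.30 and -0.11 in the first date against -1.57 and -1.35 in the second. The 3 probes carry 1 transcript accession, and none of their 3 pairs had gaps that separated the genotypes (exact permutation p between 0.2 and 0.6).

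The Mapt call passed after quantile normalization (adjusted p = 0.0455), both normexp corrections (0.0261 and 0.0172) and with the authors' values (0.0386). It was missed without the filter on dim probes (0.0933), without the date block (0.0586), without dt27J 1 (0.184), without dt27J 2 (0.0840), without WT 1 (0.248), without WT 2 (0.160) and with the replicate number as a block (0.110), while the difference stayed between -1.28 and -1.05 under every alternative tested. The Map1a call was missed after both normexp corrections (0.180 and 0.0699), without the filter (0.0988), without the date block (0.0586), without dt27J 1 (0.177), without dt27J 2 (0.0704), without WT 1 (0.248), without WT 2 (0.159) and with the replicate block (0.110).

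Map2, the tau relative best known from dendrites, had 1 probe, at 1.45, 1.80 and 1.94 in dt27J ganglia, against 2.80, 2.77 and 1.68 in WT ganglia. WT 1 and WT 2 stood far above the other 4 arrays, and WT 3 lay among the dt27J arrays. The difference was -0.69 (SE 0.32, adjusted p = 0.221), made up of -1.16 in the first date and 0.26 in the second. That difference changed by 1.42 between dates, with 1 array per genotype in the second.

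Map4, the tau relative of non-neuronal and dividing cells, was the only member with a positive difference on every probe. Probe A_52_P244572 stood at 4.06, 3.47 and 3.89 in dt27J ganglia, against 3.09, 2.77 and 3.45 in WT ganglia. Every dt27J array lay above every WT array, by a mean of 0.70 (SE 0.24, adjusted p = 0.126). Probe A_51_P465445 stood at 5.50, 5.25 and 5.48 in dt27J ganglia, against 4.91, 4.81 and 5.43 in WT ganglia, a difference of 0.36 (SE 0.21, adjusted p = 0.301), with WT 3 among the dt27J arrays. The Map4 probes correlated across the 6 arrays at r = 0.93, a description, and the gap between them was wider in dt27J by 0.34 without overlap (exact permutation p = 0.1).

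Map6, which encodes a stabiliser of axonal microtubules, gave nearly the same difference on each of its 3 probes. Probe A_52_P10732 stood at 3.04, 3.65 and 3.69 in dt27J ganglia, against 4.26, 3.98 and 4.56 in WT ganglia, a difference of -0.80 (SE 0.23, adjusted p = 0.0883). Probe A_52_P885499 stood at 0.29, 0.13 and 1.27 in dt27J ganglia, against 1.27, 1.57 and 1.58 in WT ganglia, a difference of -0.91 (SE 0.25, adjusted p = 0.0829). Probe A_51_P497263 differed by -0.85 (SE 0.26, adjusted p = 0.0993). The first probe carries another transcript accession than the other 2.

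None of the Map6 probes passed, and their dates differed in size. The first date gave -0.77, -1.21 and -1.17 on these probes in the order named, and the second date -0.86, -0.31 and -0.21. On both probes of the shared accession dt27J 3 stood near the WT arrays, whereas on A_52_P10732 it stood with the other dt27J arrays. No Map6 pair had gaps that separated the genotypes (exact permutation p between 0.7 and 1).

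No Map7 probe, for the kinesin-1 recruiter, passed the test. The differences were -0.28 (SE 0.28), -0.39 (SE 0.42) and -0.15 (SE 0.32), with adjusted p values between 0.543 and 0.791 and 95% intervals that reach from -1.38 to 0.61 on the widest probe. On probe A_52_P109548 the values were -1.78, -1.42 and -0.22 in dt27J ganglia, against -0.66, -0.43 and -1.18 in WT ganglia. On all 3 probes dt27J 3 was the highest array, so that the first date gave -0.63, -1.06 and -0.49 and the second 0.42, 0.96 and 0.54. The 3 Map7 pairs correlated at r between 0.82 and 0.96 over the 6 arrays, a description.

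**Figure D3:**
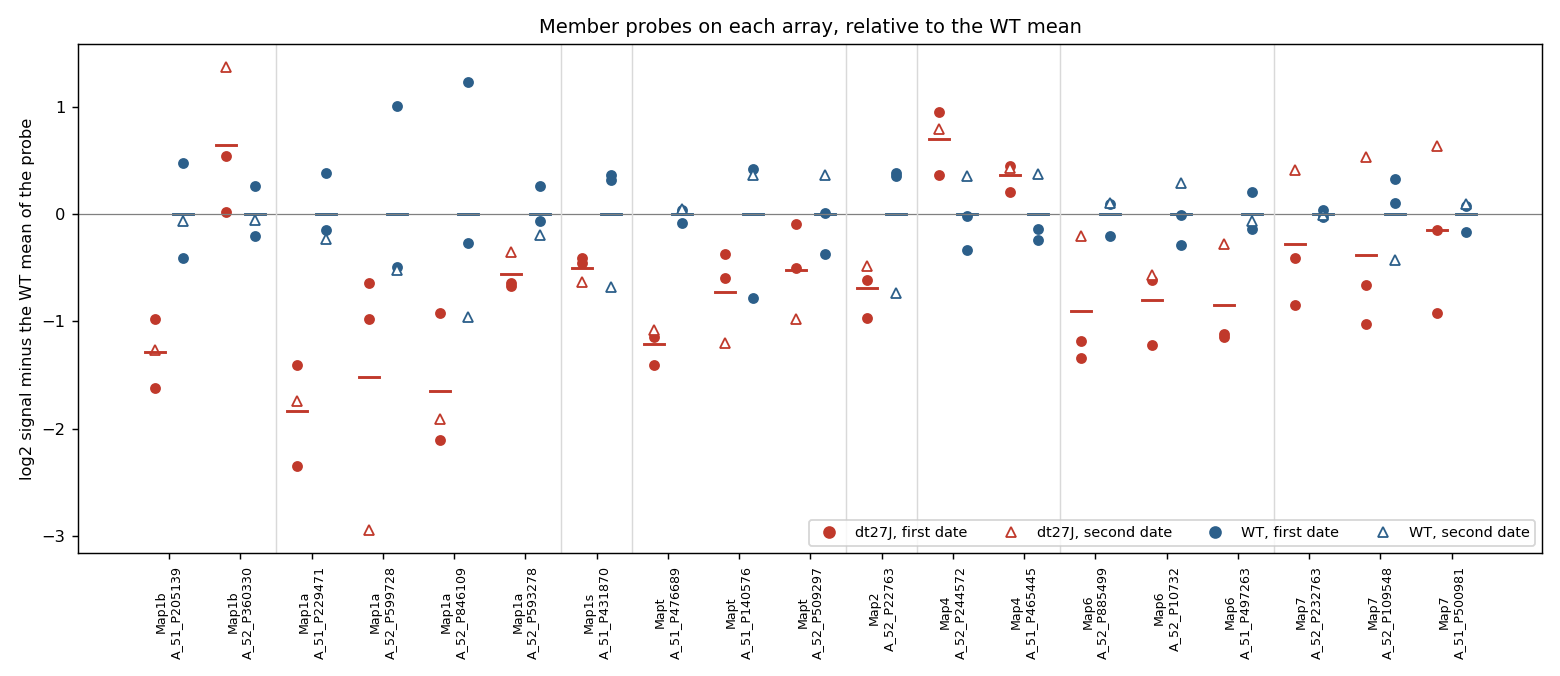
Log2 signal of each member probe on each array, minus that probe's WT mean. Red marks are dt27J arrays and blue marks WT arrays, circles the first date and open triangles the second, and short lines genotype means. The red and blue marks separate on 8 of 19 probes, 7 of them with dt27J lower, and dt27J 3 lies above the other arrays on the 3 Map7 probes and on 1 Map1b probe.

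Probe agreement within a gene was tested on 17 pairs of 6 genes. The differences had opposite signs in 1 pair, that of Map1b, and the gap separated the genotypes in 3 pairs, 1 each of Map1b, Map1a and Map4. Those 3 reached the smallest exact permutation p of 0.1, and the smallest p after adjustment over the 17 pairs was 0.567. A disagreement between probes could not pass a threshold of 0.05 in this test with 3 arrays per genotype.

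The genotypes did not overlap on 8 of 19 member probes, against 28.8% of all tested probes. The dt27J arrays were all lower on 7 of these (36.8% of 19, against 16% of all tested probes) and all higher on 1, of Map4 (against 12.8%). The 7 were 1 probe of Map1b, 3 of Map1a, 1 of Mapt and 2 of Map6. Signs agreed between the dates on 14 of 19 member probes (73.7%), against 56.8% of all tested probes. The 5 others were the probes of Map1s and Map2 and the 3 of Map7. Whether the genotype difference changed between dates was tested on each probe, and 0 of 19 passed in limma, with 8 of 19 at an unadjusted p under 0.05, where 0.831% and 27.5% of all tested probes did so. The smallest adjusted p was 0.0618, for Map7 probe A_52_P109548. The date itself changed 0 of 19 member probes (smallest adjusted p = 0.277), against 0.107% of all tested probes.

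Markers of other tissue moved with the arrays. Relative to the WT mean, the 8 tested spinal cord markers averaged -2.54, -2.75 and -1.97 on the dt27J arrays, against 1.01, 1.03 and -2.04 on the WT arrays, so that WT 1 and WT 2 stood apart from WT 3 and from all dt27J arrays. All 8 had a negative difference and 0 passed in limma (6 at an unadjusted p under 0.05, against 27.7% of all tested probes). Of the 8, 3 exceeded background clearly on all 6 arrays, and the others passed the filter through the WT arrays alone. The negative sign of those others thus rests in part on the filter. The spinal cord markers Slc6a5, Gad2 and Lhx5 were well above background on no more than 3 arrays. The Map2 signal had the same 2 high arrays, and so did Map1s. The 11 skeletal muscle markers averaged 1.11, 2.05 and 1.90 on the dt27J arrays, against -0.66, -0.60 and 1.26 on the WT arrays, and 4 of the 11 rose, where 1.31% of all tested probes were called higher. The part of spinal cord or muscle RNA in the MAP differences was not tested. In the second date, where the median difference of the spinal cord list was -0.03 and that of the muscle list 0.22, 11 of 19 member probes were negative, with 1 array per genotype. There Mapt probe A_51_P476689 stood at -1.13, Map1a probe A_51_P229471 at -1.50 and the 2 Map1b probes at -1.20 and 1.42, while Map2 stood at 0.26, Map1s at 0.05 and the Map7 probes at 0.42 to 0.96. The 11 muscle genes were split in that date. Mb, Myh1 and Tcap were the highest, at 2.13, 2.18 and 2.20, followed by Tnnt3 at 1.20 and Myh8 at 0.59. Ckm stood at 0.22 and Tnni2 at 0.01, while Acta1, Myh4, Mylpf and Actn3 were negative, at -0.31, -0.31, -0.32 and -0.58.

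Neuronal and supporting cell markers moved as well. Sensory and pan-neuronal markers averaged -0.85, -0.67 and -0.20 on the dt27J arrays, against -0.02, -0.05 and 0.07 on the WT arrays. Of these 15 markers 14 had a negative difference and 1 fell, where 1.88% of all tested probes were called lower. All 15 were well above background on all 6 arrays. The 19 member probes averaged -0.86, -0.56 and -0.50 on the dt27J arrays, against 0.17, -0.07 and -0.10 on the WT arrays. Endothelial markers averaged 1.32, 0.76 and 0.73 on the dt27J arrays, against 0.10, 0.11 and -0.21 on the WT arrays, and fibroblast markers 1.21, 1.25 and 0.26, against -0.13, -0.27 and 0.40. The glial list had 6 positive and 6 negative differences, with 3 higher past the threshold (1.31% of all tested probes were). One of the 3, Cdh19, was well above background on 3 dt27J arrays and on 1 WT array, so it passed the filter through the dt27J arrays alone. The part of the neuronal share in the MAP differences was not tested.

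**Figure D4:**
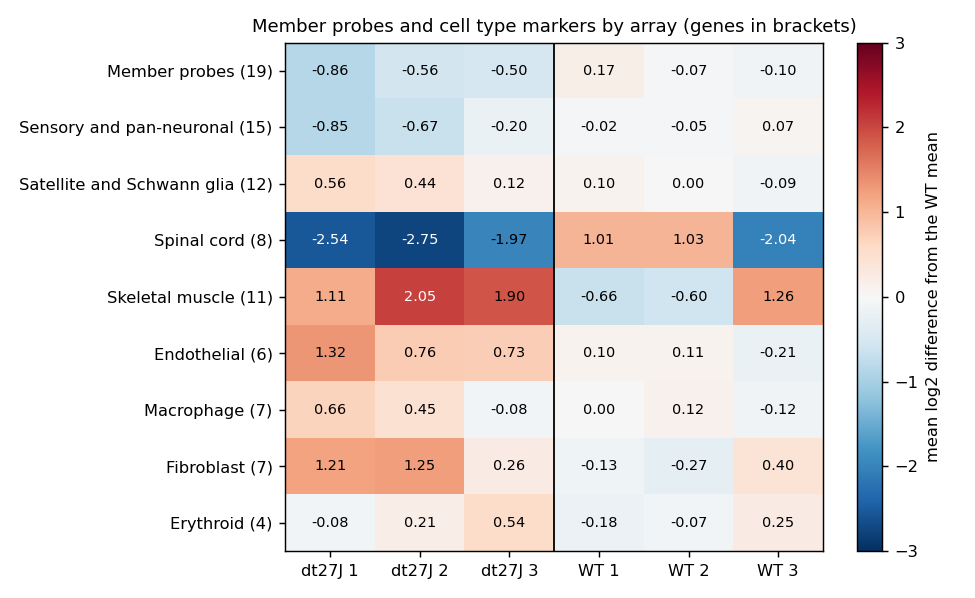
Mean log2 difference from the WT mean on each array for the 19 member probes and for 8 lists of cell type markers, with the number of probes or tested genes in brackets. Colours run from blue (lower) to red (higher). Member probes and neuronal markers are lower on the 3 dt27J arrays, and the spinal cord row separates WT 1 and WT 2 from the other 4 arrays.

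Genes that work with the members were taken from 6 lists, each gene by its tested probe of highest mean signal. The members were counted by every probe instead, so the counts are not alike. Taken by the probe of highest mean signal, no member was called. Map1a then had an adjusted p of 0.166 and Mapt one of 0.315 (limma). The list called other lattice MAPs is a loose one that includes Map1lc3a, Map1lc3b and the minus-end protein Camsap3. All 16 of its tested genes had a negative difference (median -0.57, against -0.05 over all tested probes). Of these, 0 passed in limma, with 7 at an unadjusted p under 0.05, against 27.7% of all tested probes. Camsap3, a protein of microtubule minus ends, stood at -1.04 (SE 0.21, adjusted p = 0.0526). Dclk1, a doublecortin-like kinase, stood at -1.16 (SE 0.29, adjusted p = 0.0669) and had negative differences on its 5 other probes too. Tppp3, a tubulin polymerisation-promoting protein, stood at -0.83 (SE 0.21, adjusted p = 0.0707).

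Kinases and phosphatases that act on MAPs had 2 calls among 21 tested genes, both lower, against 1.88% of all tested probes (median -0.49). Mark4, a kinase that phosphorylates tau and other MAPs and so frees them from microtubules, stood at -4.88, -4.13 and -4.06 in dt27J ganglia, against -2.82, -2.93 and -2.24 in WT ganglia. It fell by 1.69 (SE 0.25, adjusted p = 0.0431), with -1.63 in the first date and -1.82 in the second. The Mark4 probe was well above background on every array. Its dt27J signals were nearly as low on this scale as those of Map1a probe A_51_P229471 (-5.10, -4.16 and -4.49). That Map1a difference went from -1.83 to -0.50 after normexp background correction. The Mark4 difference was not examined under other background handling, so no exact fold is given. Cdk5r2, an activator of the neuronal tau kinase Cdk5, fell by 3.93 (SE 0.55, adjusted p = 0.0413), and Cdk5 itself stood at -0.86 (SE 0.20, adjusted p = 0.0605). The Cdk5r2 values were -3.21, -1.29 and -1.43 in dt27J ganglia, against 1.09, 1.20 and 3.58 in WT ganglia, and WT 3 stood above the other WT arrays.

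Plus-end tracking proteins, which ride on growing microtubule tips, went both ways, with 5 negative and 4 positive differences among 9 and 0 calls in limma (2 at an unadjusted p under 0.05, against 27.7% of all tested probes). Mapre3, the neuronal end-binding protein, stood at -0.81 (SE 0.22, adjusted p = 0.0784) and Clip1 at 0.36 (SE 0.20, adjusted p = 0.285). The other Clip1 probe had the opposite sign, at -0.52 (SE 0.37, adjusted p = 0.398). Clip2 stood at -0.69 (SE 0.19, adjusted p = 0.0830) on the probe that stands for it, while its other probe fell by 1.58 (SE 0.24, adjusted p = 0.0432). The 6 severing enzymes tested had a positive median of 0.23 and 0 calls in limma, with 2 at an unadjusted p under 0.05, against 27.7% of all tested probes. Fignl1, a fidgetin-like AAA protein, stood at 0.95 (SE 0.19, adjusted p = 0.0503) and Katna1, a katanin subunit, at 0.41 (SE 0.18, adjusted p = 0.201).

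RNA-binding proteins that splice or bind neuronal transcripts, MAP transcripts among them, had 12 negative and 2 positive differences among 14 (median -0.46), with 0 calls in limma and 6 at an unadjusted p under 0.05, against 27.7% of all tested probes. Elavl4, a neuronal stabiliser of transcripts, stood at -1.08 (SE 0.25, adjusted p = 0.0616) and Rbfox1, a splicing factor, at -0.92 (SE 0.22, adjusted p = 0.0635). Ptbp1, a splicing repressor of non-neuronal cells, stood at 0.80 (SE 0.18, adjusted p = 0.0589). Its values were 2.41, 2.39 and 2.13 in dt27J ganglia, against 1.54, 1.62 and 1.37 in WT ganglia. Elavl4 is also among the neuronal markers above.

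Of 5 tested partners of the members, all had a negative difference and only Dst was called. The kinesin-1 heavy chains Kif5a and Kif5c stood at -0.49 (SE 0.20, adjusted p = 0.177) and -0.62 (SE 0.23, adjusted p = 0.145). A second Kif5a probe fell by 1.79 (SE 0.31, adjusted p = 0.0472), and a second Kif5c probe stood at -1.33 (SE 0.31, adjusted p = 0.0620). Probe choice thus altered the call for Clip2 and Kif5a as it did for Map1a and Mapt.

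**Figure D5:**
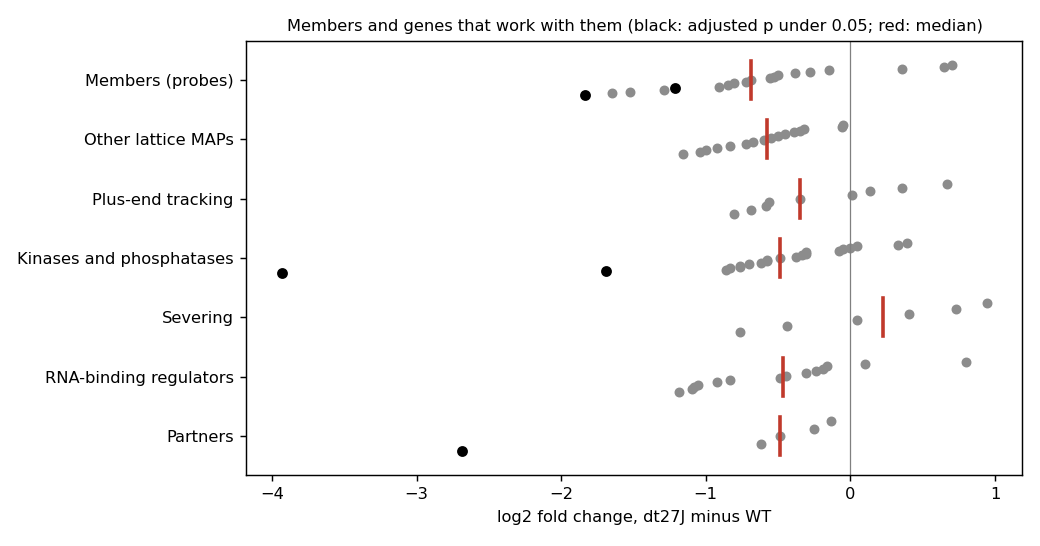
Difference between dt27J and WT ganglia on the log2 scale for the 19 member probes and for the tested genes of 6 lists of genes that work with them. Each point is a probe, with every probe of a member but only the probe of highest mean signal for a list gene. Black points passed an adjusted p of 0.05 and red lines are medians. The black points are 2 member probes, Mark4 and Cdk5r2 among the kinases, and Dst among the partners.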

How the data were processed

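The submitters' processing notes name Agilent Feature Extraction 10.5.1.1. Per the file headers, its output gives each spot a linear, background-subtracted and detrended intensity. A deposited table of the authors' own values, used as an alternative, behaves as log2 values centred per probe, with column medians between -0.0041 and 0.0053 and r of 0.928 to 0.941 with scanner values so centred; its scaling between arrays stays unknown. Per the labels' protocols, 300 ng of total RNA was labelled with Cy3.

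Control spots and outlier spots were left out, and spots of a probe were averaged. The main value was log2 of the signal less the array's 75th percentile. For normexp (offset 50) the median spot and background signals were used, since the files hold no spot means. Accessions were named through a RefSeq table of GRCm38.p6 (24844 of 41174 probes). The fitting code was run on simulated data with independent noise and no genotype by date difference, which cannot vouch for the calls here. Differences were fitted with limma 3.58.1 in R 4.3.3 on 6 arrays, with genotype and label date as terms. A second fit added their interaction, with its spread from the first date alone. The array's 75th percentile lay at a signal of 369.5 to 580 on dt27J arrays and 485 to 509 on WT arrays, no spot was saturated, and the number of arrays limits the precision. Named genes were every member and Dst probe, the 3 genes of smallest p in each of 6 lists and the 5 patterns most like Map1b; the muscle genes, Cdh19 and the untested spinal cord markers were named after their values were seen. Some genes that the rule names are not reported here. Members and lists were chosen with earlier results of these data known. Same-numbered arrays correlated in their deviations at 0.22, -0.15 and 0.06, and differently numbered ones at -0.29 to 0.23. These values cannot decide whether the numbers pair the animals, since deviations from a mean of 3 arrays are not independent.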

Additional observations from a re-analysis of the deposited data

How the results depend on the processing

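The 19 member probes held 2 calls after quantile normalization, as with the authors' values, 3 after normexp with high local backgrounds replaced, 1 after plain normexp and 1 where a probe had to be well above background on all 6 arrays. There were 0 without a filter, without the date block and with the replicate block (at an unadjusted p under 0.05 in limma, 10, 9 and 9), and 17 with array weights, whose estimate did not converge. Over the whole array the count of 838 became 358 after normexp, 1434 with local backgrounds replaced, 0 without a filter (8485 unadjusted), 14 without the date block, 2 with the replicate block and 12199 with array weights. Leaving out 1 array gave 0 to 9 member calls and 0 to 6805 calls in all. The first date alone, which equals leaving out dt27J 3 or WT 3, gave 9 and 6805. The second date alone gave a median member difference of -0.21, with 11 of 19 negative, against -0.13 over all tested probes. Fewer arrays and more probes tested alter the adjustment; other causes were not tested. In the second date alone 5 probes changed sign, those of Map1s (0.05), Map2 (0.26) and Map7 (0.42, 0.96 and 0.54). Under the other alternatives signs held on 18 of 19 probes. The exception was Map7 probe A_51_P500981, at 0.17 without dt27J 1 and 0.02 without WT 2, with a range of -0.49 to 0.17 over the arrays left out. The dimmer Dst probes missed the threshold after normexp (-0.75 and -0.64, adjusted p = 0.0843 and 0.129) and without the date block (0.0515 and 0.0586), and all 3 with the replicate block (0.0980 to 0.110). Dim probes such as Map1a A_51_P229471 are limited by their signal over background.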

Other observations

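The split between the Map1b probes was set beside other genes after it had been seen. On this array 3627 named genes had exactly 2 tested probes. Their differences between dt27J and WT had opposite signs in 26.1% of these genes, and the median size of the difference between the 2 probes was 0.29 on the log2 scale. It was as large as the 1.93 of Map1b in 27 of the 3627 genes (0.744%), and in 16 of them (0.441%) the signs were opposite as well. Probes of a gene correlated over the 6 arrays with a median r of 0.53, and 7.28% of these genes had an r as low as that of Map1b. The probe sequences were not used here, so where on the transcript the 2 Map1b probes lie was not analysed.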
